A study of Rattus norvegicus with 12 samples.

Results

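The genes described here code for the subunits of respiratory complexes I, III, IV and V, the chain of inner-membrane enzymes that mitochondria use to make ATP. They were taken by symbol: every gene whose name starts as a complex I (Ndufa, Ndufb, Ndufc, Ndufs, Ndufv), complex III (Uqcr), complex IV (Cox4 to Cox8) or complex V (Atp5) subunit and that has a probe set with a single gene symbol. This gave 72 of 14329 genes, 33 in complex I, 7 in complex III, 16 in complex IV and 16 in complex V. Of these, 68 are subunit genes and 4 are not: the pseudogenes Ndufs6-ps1 and Cox6c-ps1, the supercomplex factor Cox7a2l and the ATPase inhibitor Atp5if1. Ndufa4 was counted with complex I by its symbol, although its protein is now assigned to complex IV. Cox7a1 and Cox6b1 were among the subunit genes not analysed here.

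RNA came from 2 laryngeal muscles of male F344 rats: the posterior cricoarytenoid muscle (PCA), which abducts the vocal folds, and the adductor complex (AC), which closes them. In injured animals 1 recurrent laryngeal nerve, which supplies both, had been cut 1 week earlier and a 1 cm piece taken out. Control animals had the same approach under the same ketamine and xylazine anaesthesia, with the nerve left whole. With 2 muscles and 2 surgeries there were 4 groups, called PCA injury, PCA control, AC injury and AC control, each of 3 whole-transcript arrays. The labels name 10 animals per surgery but do not tie arrays to animals, say whether tissue was pooled, or say whether one animal gave both a PCA and an AC array. The p-values therefore cover only how these arrays vary, which may be technical variation. All levels are log2 values as deposited, and a change given as a ± b is a log2 difference with its SE from limma, with n = 3 arrays in each group.

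Complex I takes electrons from NADH, complex III passes them from ubiquinol to cytochrome c, and complex IV hands them to oxygen. All 3 pump protons out of the matrix, and complex V, the ATP synthase, lets them back to make ATP. Muscle fibres that contract often are rich in these complexes, and complex IV has subunits with one form made mainly in heart and skeletal muscle and another made in most tissues. Most subunits are coded in the nucleus, as are all the genes described here. Their transcripts are known to be under the control of nuclear respiratory factors and of coactivators of the PGC-1 family, and loss of nerve supply is known to lower the oxidative capacity of a muscle.

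Array medians over all probe sets, with or without a symbol, lay between 7.11 and 7.17. Of the 72 genes, 66 had a mean level above that of the median gene; Atp5me, Cox4i2, Cox6b2, Cox6c-ps1, Cox8c and Ndufa2 did not. The tissue label was checked on 12 measured skeletal muscle markers, whose mean level was 12.59 to 12.98 in the control arrays of both muscles, so muscle RNA was abundant. The specimens also carried RNA of other tissues in unequal amounts. Thyroid and parathyroid markers (9 measured) stood high in 3 arrays, PCA control 1 (10.09), PCA injury 2 (9.76) and AC injury 2 (8.69), against 5.94 to 7.29 in the other arrays. The number of respiratory genes past the test is therefore also given without those 3 arrays, for each comparison, complex and part of a complex in which they change it by more than 1.5 times.

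The first comparison asked how these transcripts differed in the PCA 1 week after nerve transection. Most were lower in injured PCA, in each of the complexes. By the limma test adjusted over all genes, 55 of 72 fell (76.4%) and 2 rose, Cox6a1 and Cox6b2, while 15 did not pass. Of all genes tested, 12.5% fell and 13.3% rose in the same comparison. The 55 genes that fell were 1.27 to 2.19 times lower, and the median over all 72 was -0.55, with quartiles of -0.70 and -0.37, against -0.03 over all genes. In 49 members all 3 injured arrays lay below all 3 controls, and in 3 they lay above. Over all genes these shares were 18.8% and 18.2%.

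The depth of the fall differed between the injured PCA arrays. The mean level over the 72 genes was 10.60, 10.66 and 10.65 in PCA control, against 9.93, 10.04 and 10.41 in PCA injury. All 3 injured arrays were below every control array, and PCA injury 3 lay nearest to them. It was the highest of the 3 injured arrays for 65 of the 72 genes, and PCA injury 1 was the lowest for 57. Measured from the control mean of each gene, the median shift was -0.74 in PCA injury 1, -0.59 in PCA injury 2 and -0.22 in PCA injury 3.

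**Figure D1:**
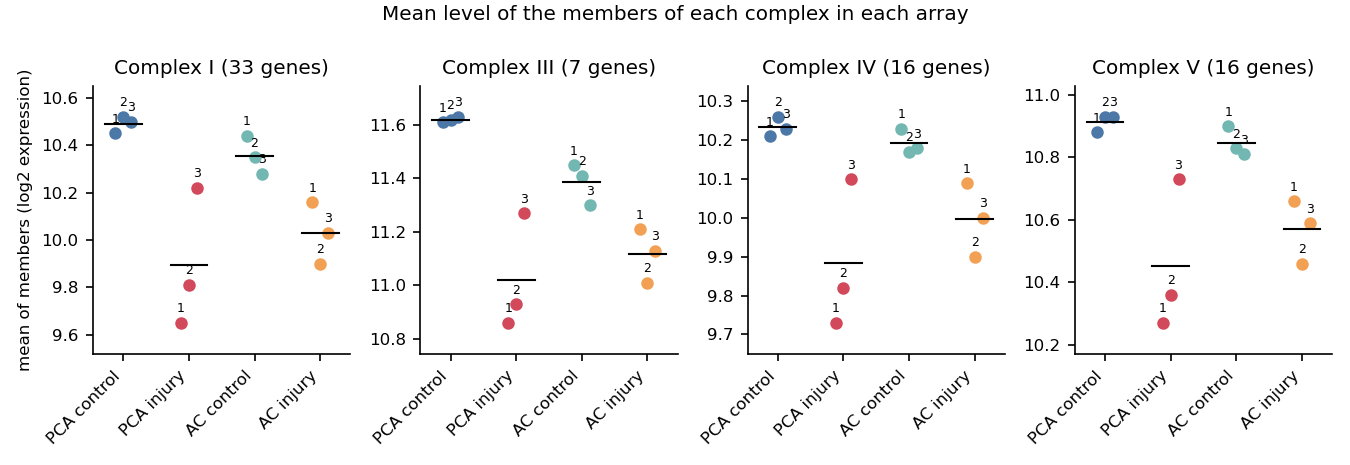
Mean log2 level over the genes of complex I, III, IV and V (1 panel each, y axis, with its own range) in every array, by group (x axis); points are arrays, the digit is the array's number and lines are group means. In complex I the injured PCA arrays sit at 9.65, 9.81 and 10.22 and the PCA controls at 10.45 to 10.52, and in each panel every injured array lies below all controls of its muscle.

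Other tissue markers moved with the same comparison. The mean of the skeletal muscle markers was 12.86 to 12.98 in PCA control and 11.93, 12.23 and 12.73 in PCA injury, and 7 of 12 fell (median -0.56). Adipocyte markers (10 measured) lay at 8.81 to 9.22 in PCA control and 7.59 to 8.19 in PCA injury, where 9 of 10 fell, among them Ucp1, the brown fat uncoupling protein (-3.46 ± 0.34). Macrophage markers (10 measured) went from 8.28 to 9.02 in controls to 10.16 to 10.70 after injury, and 9 of 10 rose. Squamous epithelium markers (6 measured) went from 8.14 to 10.56 in controls to 11.07 to 11.58, and all 6 rose. Cartilage markers (9 measured) went from 9.67 to 10.37 in controls to 8.37 to 8.75, and 8 of 9 fell, and of 3 red cell markers 0 passed. Without the 3 thyroid-rich arrays 1 skeletal muscle marker fell and 3 squamous markers rose. The part of these tissues in the fall of respiratory genes was not tested, and in bulk tissue fewer muscle fibres and less of a transcript per fibre cannot be told apart.

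The count of 57 changed genes depended on arrays and on the model. It was 37 without PCA control 3, 34 without PCA injury 1, 37 without PCA injury 2 and 34 with only the PCA groups fitted. Over all genes 2466, 2587, 3220 and 2257 passed in these fits, against 1797 lower and 1900 higher in the main fit. The median of the 72 was -0.71 without PCA injury 3. The count was 31 without the 3 arrays rich in thyroid transcripts, 11 with the squamous epithelium score as a covariate and 0 with the adipocyte score, which was higher in every PCA control than in any other array. In these fits 2335, 322 and 6 of all genes passed, in that order. The median was -0.65 with the squamous score and -0.81 with the adipocyte score. Of the 57, 33 passed in each of the 12 fits that left out 1 array. The 11 that passed with the squamous score were Ndufa5, Ndufa6, Ndufa10, Ndufs4, Ndufs5, Uqcrc2, Uqcrfs1, Cox4i1, Cox7b, Atp5mc1 and Atp5me.

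In complex I, 27 of 33 genes fell in injured PCA, by 0.41 to 1.05 on the log2 scale, and none rose (median -0.62). The N module, which binds NADH and takes up its electrons, had 8 of 9 genes fall (median -0.68). The Q module, which passes electrons to ubiquinone, had 5 of 5 fall (median -0.76). The membrane arm, which pumps protons, had 12 of 17 fall (median -0.57). Without the 3 thyroid-rich arrays 15 genes of the complex fell, 3 of them in the membrane arm (Ndufa10, Ndufb5 and Ndufs5). The count for the complex was also 15 without PCA injury 1 and 17 without PCA control 3. The N module count was 5 without PCA control 3, PCA injury 1 or PCA injury 2, and the membrane arm count was 4 to 8 without any one PCA array other than PCA injury 3.

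Among N module genes, Ndufa6, an accessory subunit that anchors the mitochondrial acyl carrier protein, read 10.03, 10.14 and 10.02 in PCA control and 8.89, 8.93 and 9.27 in PCA injury. Every injured array was below every control, and the change was -1.03 ± 0.13 (limma, adjusted p = 0.00044). Ndufs4, an accessory subunit whose loss in humans causes Leigh syndrome, stood at 12.28, 12.14 and 12.17 in controls and 11.33, 11.52 and 11.63 after injury. Its groups did not overlap either, and it fell by 0.70 ± 0.10 (adjusted p = 0.00067). Ndufs1, the large iron-sulfur subunit, had the largest change of the complex at -1.05 ± 0.18. Ndufv1, which binds NADH and the flavin, changed by -0.68 ± 0.13 and its iron-sulfur partner Ndufv2 by -0.70 ± 0.11. The 3 remaining N module genes that fell were Ndufa7 (-0.47 ± 0.14), Ndufa12 (-0.47 ± 0.12) and Ndufa2 (-0.41 ± 0.12). Ndufv3, a small accessory subunit, did not pass, with 10.89, 11.04 and 10.85 in controls, 10.35, 10.75 and 11.11 after injury and a change of -0.19 ± 0.15.

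In the Q module the smallest adjusted p belonged to Ndufa5, an accessory subunit of the hydrophilic arm, at 8.70, 8.74 and 8.88 in PCA control and 7.74, 7.67 and 8.07 in PCA injury. These groups lay apart, and the change was -0.95 ± 0.11 (limma, adjusted p = 0.000356). Ndufs3, a core subunit, fell by 0.97 ± 0.17, and Ndufa9, which binds a nucleotide, by 0.76 ± 0.12. Ndufs7, which carries the last iron-sulfur cluster before ubiquinone, fell by 0.59 ± 0.13, and Ndufs8, which carries a further pair of clusters, by 0.46 ± 0.13. None of the 5 groups of injured arrays overlapped its controls.

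The membrane arm held the gene with the smallest adjusted p of all 72, and 5 of the 6 complex I genes that did not pass. Ndufs5, a subunit on the intermembrane face, read 10.52, 10.82 and 10.68 in PCA control and 9.79, 9.87 and 10.02 in PCA injury, a change of -0.78 ± 0.09 (limma, adjusted p = 0.000317). Even PCA injury 3, the mildest injured array, was below the lowest control. Ndufa10 changed by -0.88 ± 0.15, Ndufb5 by -0.74 ± 0.12 and Ndufb8 by -0.69 ± 0.20. The other members that fell were Ndufa1, Ndufa3, Ndufa11, Ndufb3, Ndufb4, Ndufb7, Ndufb9 and Ndufc2, all accessory subunits, with changes from -0.67 in Ndufb3 to -0.46 in Ndufb4. Ndufa4 fell by 0.70 ± 0.15 and the pseudogene Ndufs6-ps1, whose probes may read its parent gene, by 0.79 ± 0.15.

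Of the 5 membrane arm genes that did not pass, Ndufb10 stood at 9.91, 10.13 and 10.11 in PCA control and 9.39, 9.58 and 9.99 in PCA injury (-0.40 ± 0.15). Ndufa8 stood at 9.90, 9.95 and 9.96 in controls and 9.34, 9.56 and 10.01 after injury (-0.30 ± 0.14), and Ndufb6 at 11.81, 11.63 and 11.68 in controls and 11.40, 11.31 and 11.67 after injury (-0.25 ± 0.10). In these 3 accessory subunits the groups overlapped through PCA injury 3, although every change was below 0. Ndufb2 read 8.20, 8.99 and 8.73 in controls and 8.20, 8.55 and 8.89 after injury (-0.09 ± 0.21), and Ndufb11 10.29, 10.29 and 10.25 in controls and 9.80, 10.17 and 10.69 after injury (-0.06 ± 0.18). The SE of these last 2 exceeded their change, and the sign of both turned when PCA injury 1 was left out (0.08 in Ndufb2 and 0.15 in Ndufb11).

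**Figure D2:**
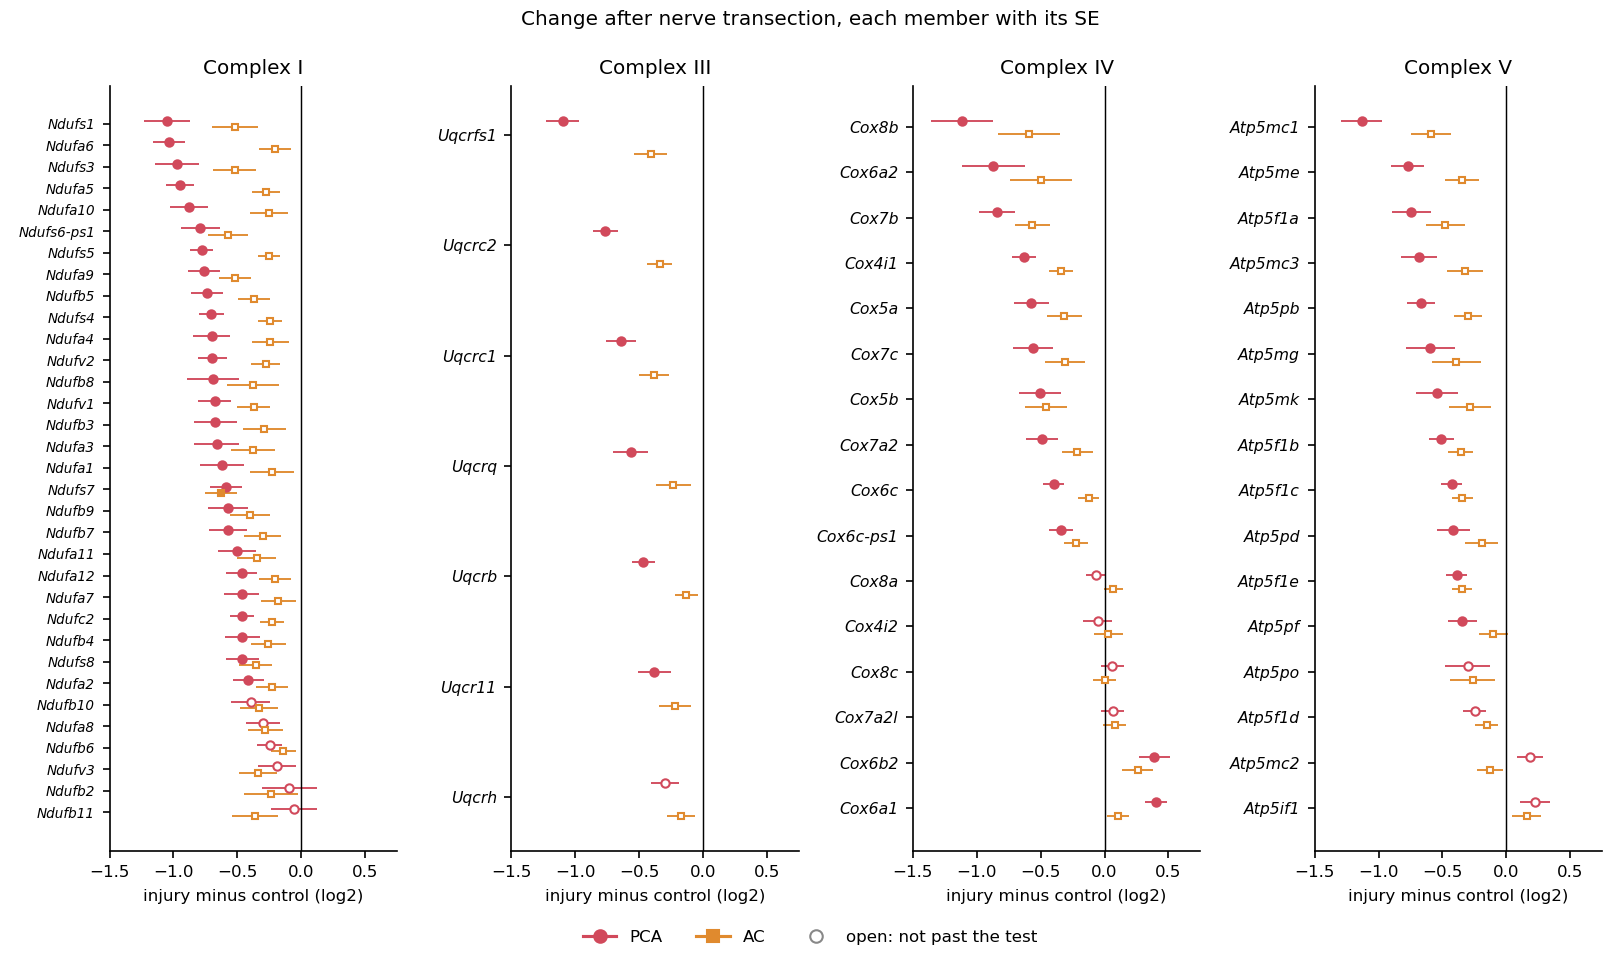
Log2 difference of injury from control (x axis) for each of the 72 genes (y axis), 1 panel per complex; circles are PCA, squares are AC and bars are the SE. Filled symbols passed the limma test and open ones did not: in PCA 55 filled circles lie below 0 and those of Cox6a1 and Cox6b2 above it, and in AC Ndufs7 is the 1 filled square.

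In complex III, 6 of 7 genes fell in injured PCA (median -0.56), and 3 did without the thyroid-rich arrays, Uqcrfs1, Uqcrc1 and Uqcrc2. Uqcrfs1, the Rieske iron-sulfur protein that takes electrons from ubiquinol, read 10.77, 10.72 and 10.83 in PCA control and 9.60, 9.52 and 9.91 in PCA injury. All injured arrays were lower, PCA injury 3 by the least, and the change was -1.10 ± 0.13 (limma, adjusted p = 0.000394), a level 2.14 times lower. The core proteins followed: Uqcrc2 went from 11.64, 11.64 and 11.62 in controls to 10.80, 10.72 and 11.09 after injury (-0.76 ± 0.10, adjusted p = 0.000507). Uqcrc1 went from 11.44, 11.60 and 11.56 in controls to 10.70, 10.81 and 11.17 after injury (-0.64 ± 0.12, adjusted p = 0.00286). Neither core protein had an injured array within the control range. Uqcrb, a small subunit near the ubiquinone site, had 12.80, 12.58 and 12.74 in controls and 12.15, 12.16 and 12.41 after injury (-0.47 ± 0.09), and its groups did not overlap. Uqcrq (-0.56 ± 0.14) and Uqcr11 (-0.38 ± 0.13), small accessory subunits, also fell. Uqcrh, the hinge protein that helps cytochrome c dock, did not pass, with 11.53, 11.53 and 11.52 in controls, 11.07, 11.10 and 11.52 after injury and a change of -0.30 ± 0.11 (adjusted p = 0.0695).

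Complex IV was the mixed one. Of its 16 genes 10 fell, 2 rose and 4 did not pass (median -0.44). Without the thyroid-rich arrays 3 fell, Cox4i1, Cox7b and Cox8b, and 1 rose, Cox6a1. The number that fell was 5 without PCA control 3, PCA injury 1 or PCA injury 2. Cox4i1, the widespread form of the largest nuclear subunit, read 11.84, 11.88 and 11.77 in PCA control and 11.10, 11.09 and 11.40 in PCA injury (-0.63 ± 0.09; limma, adjusted p = 0.001). Cox7b, a small subunit, read 11.29, 11.63 and 11.53 in controls and 10.45, 10.54 and 10.93 after injury (-0.84 ± 0.14, adjusted p = 0.00168). Cox6c read 13.08, 13.08 and 13.10 in controls and 12.56, 12.65 and 12.86 after injury (-0.40 ± 0.08, adjusted p = 0.00577). In all 3 genes the injured arrays lay below every control, with PCA injury 3 the closest. Cox5a (-0.57 ± 0.14), Cox5b (-0.50 ± 0.16), Cox7a2 (-0.49 ± 0.12) and Cox7c (-0.56 ± 0.16), nuclear-coded subunits with no paired form in this set, fell as well. So did the pseudogene Cox6c-ps1 (-0.34 ± 0.10), which may share probe sequence with Cox6c.

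Complex IV has paired forms of a subunit and complex V has several genes for one ring protein, and the sequences before their starts are shown here because each gene is transcribed from a promoter of its own. Each is the 120 bases before the gene's start in RefSeq (GRCr8), 5′ to 3′ on the gene's strand, with matches to a searched motif, on either strand, in capitals. They are the muscle form Cox6a2 at chr1:192219717-192219836, the muscle form Cox8b at chr1:205408274-205408393 and its widespread counterpart Cox8a at chr1:213833624-213833743. Then follow Atp5mc1 at chr10:81523346-81523465, Atp5mc2 at chr7:135678219-135678338 and Atp5mc3 at chr3:79220665-79220784, which code for the same mature protein. All 6 lie on the minus strand. In Cox6a2 the capitals mark a MEF2 motif, in Cox8a a pair of ETS motifs, in Atp5mc2 an NRF1 motif and in Atp5mc3 an ERR motif. Cox8b and Atp5mc1 held no match in this window.
Cox6a2: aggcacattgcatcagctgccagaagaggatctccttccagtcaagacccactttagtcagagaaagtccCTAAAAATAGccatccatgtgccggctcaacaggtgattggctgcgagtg
Cox8b: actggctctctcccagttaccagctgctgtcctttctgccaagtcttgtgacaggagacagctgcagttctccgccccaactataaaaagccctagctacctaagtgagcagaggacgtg
Cox8a: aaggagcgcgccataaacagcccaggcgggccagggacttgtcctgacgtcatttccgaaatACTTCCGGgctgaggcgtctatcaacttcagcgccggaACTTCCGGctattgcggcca
Atp5mc1: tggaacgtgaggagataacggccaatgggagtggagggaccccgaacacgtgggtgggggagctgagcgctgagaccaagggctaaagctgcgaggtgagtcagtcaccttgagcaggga
Atp5mc2: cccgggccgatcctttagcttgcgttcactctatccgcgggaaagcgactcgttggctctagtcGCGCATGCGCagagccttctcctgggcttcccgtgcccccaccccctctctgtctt
Atp5mc3: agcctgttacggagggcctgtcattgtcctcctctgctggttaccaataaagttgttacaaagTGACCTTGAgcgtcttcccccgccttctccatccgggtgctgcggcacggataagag

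Both muscle forms fell in injured PCA, whereas the widespread Cox6a1 rose and Cox8a did not pass. Cox6a2, the heart and muscle form of subunit VIa, read 12.25, 12.62 and 12.35 in PCA control and 11.08, 11.30 and 12.23 in PCA injury, a change of -0.87 ± 0.24 (limma, adjusted p = 0.0229). Cox6a1, the form of most other tissues, read 10.22, 10.20 and 9.93 in controls and 10.44, 10.59 and 10.52 after injury, and rose by 0.40 ± 0.09 (adjusted p = 0.00701). All injured arrays were below the controls in Cox6a2, by a small step between PCA injury 3 (12.23) and PCA control 1 (12.25), and above them in Cox6a1. Cox8b, the muscle form of subunit VIII in rodents, read 11.49, 11.66 and 11.65 in controls and 10.02, 10.27 and 11.17 after injury (-1.11 ± 0.24, adjusted p = 0.00701). Cox8a, its widespread form, read 12.40, 12.25 and 12.23 in controls and 12.14, 12.30 and 12.23 after injury and did not pass (-0.07 ± 0.07). The groups of Cox8b lay apart and those of Cox8a overlapped. Cox6a2 did not pass without PCA control 2, PCA control 3, PCA injury 1 or PCA injury 2. Nor did it pass without the thyroid-rich arrays or with only the PCA groups fitted. Cox8b and Cox6a1 passed in each of these fits, and with either marker score Cox6a2, Cox8b and Cox6a1 did not pass.

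Cox4i2, the form of subunit IV that is common in lung and induced by low oxygen, was among the 6 genes of low level. It read 6.78, 6.89 and 6.82 in PCA control and 6.73, 6.81 and 6.79 in PCA injury, with overlapping groups (-0.05 ± 0.11). Cox6b2, known mainly from testis, read 6.29, 6.27 and 6.54 in controls and 6.89, 6.79 and 6.59 after injury and rose by 0.39 ± 0.12 (limma, adjusted p = 0.0346). Its level was low in every array, and the injured arrays lay above the controls by a small step (6.59 against 6.54). Cox6b2 did not pass without PCA control 1, PCA control 2, PCA injury 1 or PCA injury 2. Nor did it pass without the thyroid-rich arrays or with only the PCA groups fitted. The same held with the replicate number as a block and with either marker score. Cox8c, also known from testis, read 5.22, 5.22 and 5.21 in controls and 5.32, 5.27 and 5.24 after injury (0.06 ± 0.09): the groups were apart by a small step, and the change did not pass. Cox7a2l, which helps complexes III and IV join, read 10.92, 11.14 and 10.86 in controls and 11.15, 11.05 and 10.91 after injury (0.06 ± 0.09). Its groups overlapped.

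The log2 ratio of the forms within each array gives the shift free of the array's overall level, although the ratio itself also depends on how each probe set binds. In bulk tissue it also depends on the mix of tissues, since the muscle forms and the widespread forms are not made by the same cells. The part of the tissue mix in the ratios was not tested, and a change of form within fibres cannot be told apart from it. In PCA the Cox6a2/Cox6a1 ratio was 2.03 to 2.42 in the controls and 0.64 to 1.71 after injury. In AC it was 1.79 to 1.98 and then 1.06 to 1.58. In both muscles the injured arrays were all below the controls. Within muscle the ratio changed by -0.94 with injury (exact permutation test, two-sided, p = 0.005, the smallest the 400 permutations can give, adjusted p = 0.005 over the 3 pairs). Its change was -1.27 in PCA and -0.60 in AC.

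The Cox8b/Cox8a ratio was -0.91 to -0.58 in control PCA and -2.12 to -1.06 after injury. In AC the controls lay at -0.91 to -0.75 and the injured arrays at -1.83 to -1.26. Again no injured array reached its controls. The change within muscle was -0.85 (exact permutation p = 0.005, adjusted p = 0.005), with -1.04 in PCA and -0.66 in AC. The Cox4i2/Cox4i1 ratio was -5.06 to -4.95 in control PCA and -4.61 to -4.28 after injury. In AC it was -4.90 to -4.44 and then -4.34 to -4.17. This ratio went the other way, by 0.48 (exact permutation p = 0.005, adjusted p = 0.005), with 0.58 in PCA and 0.37 in AC. Of these forms, Cox4i1 fell in PCA and Cox4i2 passed in neither muscle. Within 1 muscle an exact permutation test of 3 arrays against 3 cannot go below p = 0.1, and each of the 6 such tests gave that value.

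**Figure D3:**
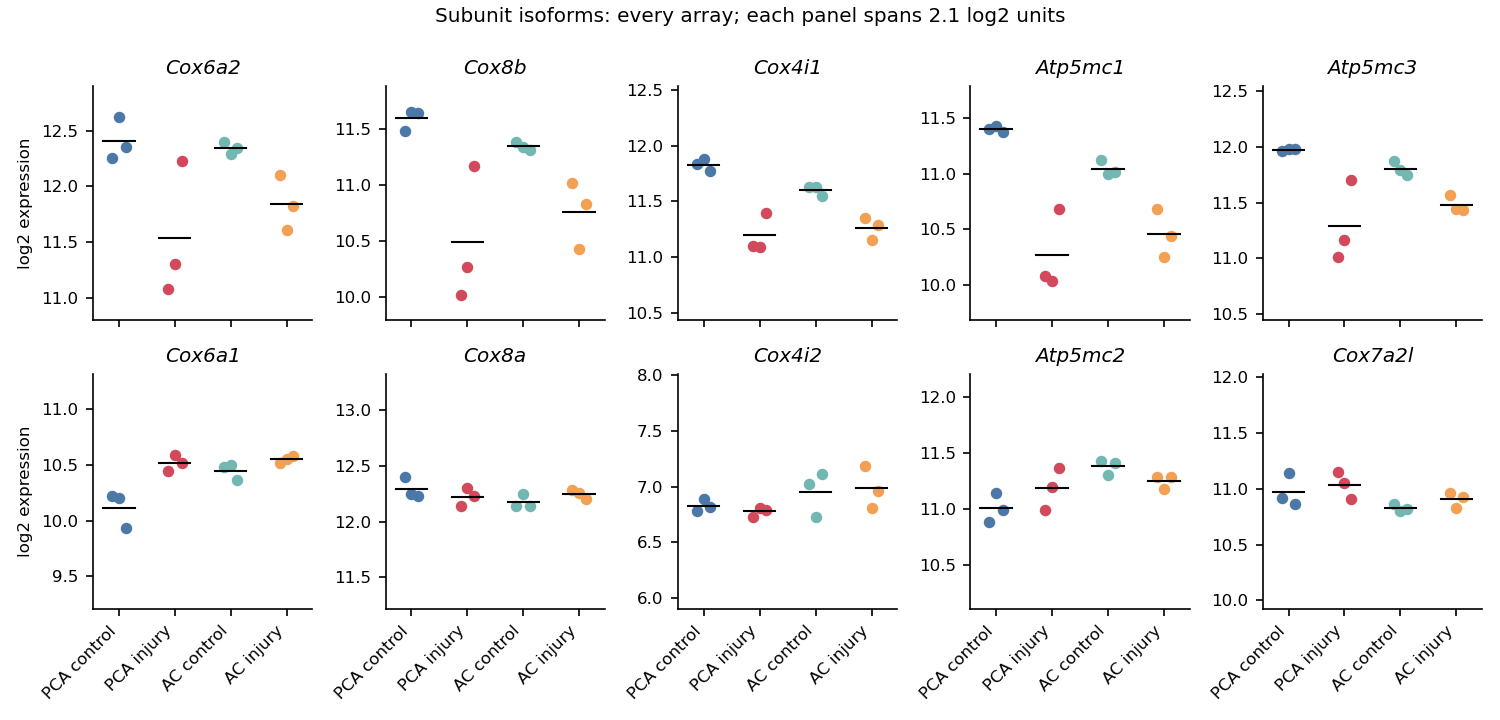
Log2 levels of the paired complex IV forms, of the Atp5mc genes and of Cox7a2l in every array (y axis, each panel spanning the same range) by group (x axis); points are arrays and lines are group means. Cox6a2 and Cox8b sit lower in the injured groups of both muscles. Cox6a1 sits higher in the injured arrays than in the controls of each muscle, by a small step in AC, and Cox8a overlaps in both muscles.

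In complex V, 12 of 16 genes fell in injured PCA and none rose (median -0.47). In the F1 head, which makes ATP, 4 of 5 genes fell (median -0.43). In the membrane part and peripheral stalk, where a ring turns the shaft and the stalk holds the head, 8 of 10 fell (median -0.57). Without the thyroid-rich arrays 8 genes of the complex fell, 4 of them in the head, and Atp5if1 rose. The other 4 were in the membrane part and stalk (Atp5mc1, Atp5me, Atp5mg and Atp5pb). The membrane part and stalk count was 4 or 5 without any one PCA array other than PCA injury 3, and 5 without AC control 3. Atp5f1c, the rotor shaft of the head, read 9.21, 9.29 and 9.36 in PCA control and 8.78, 8.77 and 9.03 in PCA injury (-0.43 ± 0.08; limma, adjusted p = 0.00403). Atp5f1a and Atp5f1b, which form the catalytic hexamer, fell by 0.74 ± 0.15 and 0.51 ± 0.10, and Atp5f1e, a small part of the central stalk, by 0.39 ± 0.08. Atp5f1d, its neighbour in the stalk, read 12.76, 12.90 and 12.84 in controls and 12.41, 12.61 and 12.74 after injury and did not pass (-0.25 ± 0.09, adjusted p = 0.0665), although its groups did not overlap.

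Of the 3 genes of the proton-carrying ring subunit c, 2 fell and 1 did not pass, and the difference between them was not tested. Atp5mc1 read 11.40, 11.43 and 11.37 in PCA control and 10.08, 10.04 and 10.68 in PCA injury, a change of -1.13 ± 0.16 (limma, adjusted p = 0.00072) and the largest fall of the 72. Atp5mc3 read 11.96, 11.98 and 11.98 in controls and 11.01, 11.16 and 11.70 after injury (-0.68 ± 0.14, adjusted p = 0.00537). Atp5mc2 read 10.88, 11.14 and 10.99 in controls and 10.99, 11.20 and 11.37 after injury and did not pass (0.18 ± 0.10, adjusted p = 0.224). The injured arrays were all below the controls in Atp5mc1 and Atp5mc3, and overlapped them in Atp5mc2, where PCA injury 3 was the highest. A second Atp5mc2 probe set, at 10.44 to 10.58 in controls and 10.65 to 11.05 after injury, had every injured array above every control. It was not tested on its own.

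In the stalk, Atp5pb, the long peripheral arm, read 11.40, 11.28 and 11.47 in PCA control and 10.55, 10.61 and 10.99 in PCA injury (-0.67 ± 0.11; limma, adjusted p = 0.00162). Atp5me, a membrane subunit that takes part in joining synthases into dimers, read 7.91, 8.16 and 8.03 in controls and 7.04, 7.29 and 7.45 after injury (-0.77 ± 0.13, adjusted p = 0.0021). Both had groups apart. Atp5mg (-0.59 ± 0.19), Atp5mk (-0.54 ± 0.17), Atp5pd (-0.41 ± 0.13) and Atp5pf (-0.34 ± 0.11) fell too, with adjusted p-values up to 0.0458 in Atp5pf. Atp5po, which links the stalk to the head, read 9.28, 9.75 and 9.47 in controls and 8.94, 9.03 and 9.63 after injury and did not pass (-0.30 ± 0.18). Atp5if1, which blocks the synthase from running backwards, read 11.11, 10.61 and 10.69 in controls and 10.94, 11.12 and 11.02 after injury (0.22 ± 0.12). Its injured arrays overlapped the controls and did not pass.

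The second comparison asked the same of the AC. Here 1 gene fell, Ndufs7, and 0 rose by limma's test adjusted over all genes, against 0.761% and 1.15% of all genes. At an unadjusted p under 0.05, 34 of 72 were lower and 0 higher, against 8.93% and 11.3% of all genes. In 54 genes all injured arrays lay below all controls and in 2 above, against 13.1% and 15.3% of all genes. The median over the 72 was -0.29, against 0.02 over all genes, with -0.29 in complex I, -0.23 in complex III, -0.22 in complex IV and -0.31 in complex V.

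The mean over the 72 genes was 10.59, 10.52 and 10.47 in AC control and 10.36, 10.13 and 10.26 in AC injury. The groups did not overlap, and AC injury 2 was the lowest of its group for 61 genes. The median shift from the control mean was -0.17, -0.41 and -0.29 in AC injury 1, 2 and 3. AC injury 2 is one of the arrays with thyroid transcripts, and without the 3 such arrays the count was 0 and the median -0.23. In the skeletal muscle markers 0 of 12 passed in AC (median -0.30), with arrays at 12.59 to 12.81 in controls and 12.47, 12.23 and 12.42 after injury. Macrophage markers went from 9.23 to 9.54 in AC control to 9.89 to 10.38 in AC injury, and 2 of 10 rose. Red cell markers went from 9.35 to 10.16 in AC control to 7.92 to 8.74 in AC injury, and 1 of 3 fell, whereas 0 of 10 adipocyte, 0 of 6 squamous and 0 of 9 cartilage markers passed. Their part in the result was not tested.

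Ndufs7 read 11.53, 11.36 and 11.29 in AC control and 10.89, 10.66 and 10.74 in AC injury, a change of -0.63 ± 0.13 (limma, adjusted p = 0.0384), and its groups lay apart. Its Q module neighbour Ndufa9 read 11.50, 11.30 and 11.24 in controls and 10.88, 10.76 and 10.84 after injury (-0.52 ± 0.12, adjusted p = 0.0588). The groups of Ndufa9 lay apart as well, without passing. In complex III, Uqcrc2 read 11.41, 11.33 and 11.23 in controls and 11.07, 10.88 and 11.01 after injury (-0.34 ± 0.10, adjusted p = 0.094). Uqcrc1 read 11.41, 11.36 and 11.24 in controls and 11.08, 10.85 and 10.93 after injury (-0.38 ± 0.12, adjusted p = 0.103). Every injured array of both core proteins was below every control.

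In complex IV, Cox7b read 11.44, 11.24 and 11.13 in AC control and 10.79, 10.57 and 10.75 in AC injury (-0.57 ± 0.14; limma, adjusted p = 0.0616). Cox4i1 read 11.63, 11.63 and 11.55 in controls and 11.35, 11.15 and 11.29 after injury (-0.34 ± 0.09, adjusted p = 0.0818). In complex V, Atp5f1e read 12.28, 12.17 and 12.10 in controls and 11.91, 11.74 and 11.86 after injury (-0.35 ± 0.08, adjusted p = 0.0543). Atp5f1c read 9.24, 9.18 and 9.13 in controls and 8.86, 8.78 and 8.88 after injury (-0.34 ± 0.08, adjusted p = 0.0616). All 4 had injured arrays below the controls and missed the threshold. Atp5mc1, which had the largest fall in PCA, went from 11.12, 11.00 and 11.01 in controls to 10.68, 10.25 and 10.44 after injury in AC (-0.59 ± 0.16, adjusted p = 0.0779), and Atp5mc3 from 11.87, 11.79 and 11.75 in controls to 11.57, 11.44 and 11.43 after injury (-0.32 ± 0.14). Atp5mc2 read 11.43, 11.30 and 11.41 in controls and 11.29, 11.18 and 11.29 after injury (-0.13 ± 0.10).

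Of the paired forms in AC, Cox6a2 read 12.40, 12.29 and 12.34 in controls and 12.10, 11.61 and 11.82 after injury (-0.50 ± 0.24), and Cox6a1 10.48, 10.50 and 10.36 in controls and 10.52, 10.55 and 10.58 after injury (0.10 ± 0.09). Cox8b read 11.39, 11.34 and 11.32 in controls and 11.02, 10.43 and 10.83 after injury (-0.59 ± 0.24), and Cox8a 12.14, 12.25 and 12.14 in controls and 12.28, 12.26 and 12.20 after injury (0.07 ± 0.07). None of these 4 passed alone. The muscle forms had injured arrays below all controls and Cox6a1 had them above all controls by a small step, whereas Cox8a overlapped. Cox4i2 read 7.02, 6.73 and 7.11 in controls and 7.18, 6.81 and 6.96 after injury (0.03 ± 0.11), and Cox6b2 6.44, 6.53 and 6.65 in controls and 6.86, 6.58 and 6.96 after injury (0.26 ± 0.12), both with overlap.

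The count in AC changed with the model and with the arrays left out, and the cause was not tested. It was 11 when only the AC groups were fitted, 11 when arrays were weighted and 4 over genes above the median level. Over all genes 619, 703 and 250 passed in these fits, against 109 lower and 165 higher in the main fit. The count of respiratory genes was 23 without PCA injury 3 and 7 without PCA injury 1, arrays that enter this comparison only through the shared spread. In those fits 622 and 663 of all genes passed. The respiratory count was 0 without any one of PCA control 2, PCA control 3, AC control 1, AC control 2, AC control 3, PCA injury 2, AC injury 2 or AC injury 3. There 13 to 198 of all genes passed.

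**Figure D4:**
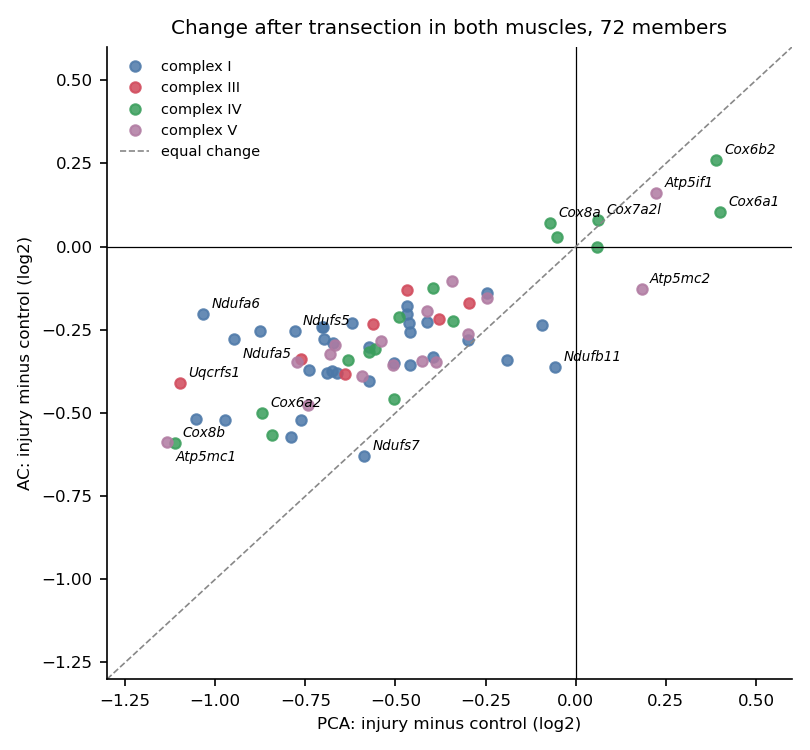
Log2 difference of injury from control in PCA (x axis) and in AC (y axis) for each of the 72 genes, coloured by complex, with the line of equal change. Most points lie below 0 on both axes and nearer to 0 in AC, such as Atp5mc1 at -1.13 in PCA and -0.59 in AC, and Cox6a1 lies above 0 on both.

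The third comparison tested whether injury changed these genes differently in the muscles, as the change in AC minus the change in PCA. By limma 0 of 72 passed, against 0.154% of all genes. At an unadjusted p under 0.05, 15 genes were higher, which is a smaller fall in AC, and 1 was lower, Cox6a1 (-0.30 ± 0.12). Over all genes 7.14% were higher and 8.54% lower at that level. The median of the difference was 0.25, against 0.05 over all genes, and 63 of the 72 lay above 0. This median was 0.14 without PCA injury 1 and 0.40 without PCA injury 3. The smallest p-values were those of Ndufa6 (0.83 ± 0.18, adjusted p = 0.0684), Ndufa5 (0.67 ± 0.16, adjusted p = 0.0721) and Ndufs5 (0.53 ± 0.13, adjusted p = 0.0773). The count was 4 with array weights and 1 over genes above the median level, where 348 and 143 of all genes passed.

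Across the 72 genes, the changes in PCA and AC, which share no arrays, had a Pearson correlation of 0.78, against 0.50 across all genes. This is a description over genes, which share arrays and are not independent replicates. In 9 of the 72 the change was lower in AC than in PCA, among them Ndufs7, with -0.59 ± 0.13 in PCA and -0.63 ± 0.13 in AC, and Ndufb11, with -0.06 ± 0.18 in PCA and -0.36 ± 0.18 in AC. The difference between the muscles did not pass for either (adjusted p = 0.934 and 0.6).

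The fourth comparison set the uninjured muscles side by side. In controls, 5 of 72 genes were higher in PCA and 2 lower by limma, against 3.24% and 7.39% of all genes. The lower share of the 72, 2.78%, was thus below that of all genes. All PCA controls lay above all AC controls in 19 genes and below them in 5, against 17.7% and 15.9% of all genes. The median of PCA minus AC was 0.12, and 0.04 over all genes. The 5 higher genes were Ndufs5, Ndufa6, Ndufa5, Ndufs4 and Uqcrfs1, and the 2 lower ones Cox6a1 and Atp5mc2.

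Ndufs5 read 10.52, 10.82 and 10.68 in PCA control and 10.16, 10.15 and 10.07 in AC control, a difference of 0.55 ± 0.09 (limma, adjusted p = 0.00449). Ndufa6 read 10.03, 10.14 and 10.02 in PCA and 9.51, 9.21 and 9.25 in AC (0.74 ± 0.13, adjusted p = 0.0052), and Ndufa5 8.70, 8.74 and 8.88 in PCA and 8.18, 8.28 and 8.21 in AC (0.55 ± 0.11, adjusted p = 0.00973). In these 3 complex I genes the PCA controls lay above every other array of the study. After injury Ndufs5 stood at 9.79, 9.87 and 10.02 in PCA and 9.92, 9.84 and 9.86 in AC, Ndufa6 at 8.89, 8.93 and 9.27 in PCA and 9.32, 8.96 and 9.08 in AC, and Ndufa5 at 7.74, 7.67 and 8.07 in PCA and 8.10, 7.86 and 7.88 in AC. The injured muscles overlapped in all 3. Uqcrfs1 (0.59 ± 0.13, adjusted p = 0.0157) and Ndufs4 (0.37 ± 0.10, adjusted p = 0.0322) were also higher in PCA control.

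Cox6a1 was lower in PCA control, at 10.22, 10.20 and 9.93, than in AC control, at 10.48, 10.50 and 10.36 (-0.33 ± 0.09; limma, adjusted p = 0.0348). Atp5mc2 was lower too, at 10.88, 11.14 and 10.99 against 11.43, 11.30 and 11.41 (-0.38 ± 0.10, adjusted p = 0.0389). The groups of both genes lay apart. These differences use the same PCA control arrays as the injury comparison in PCA, so a gene high in those arrays alone enters both. For Ndufs5 the values side by side are 0.55 between the controls and -0.78 with injury, for Ndufa6 0.74 and -1.03, and for Cox6a1 -0.33 and 0.40.

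Adipocyte markers were at 8.81 to 9.22 in PCA control and 7.67 to 7.76 in AC control, where 8 of 10 differed. Squamous epithelium markers were lower in PCA control, at 8.14 to 10.56, than in AC control, at 11.47 to 11.98. All 6 of them passed. Cartilage markers were higher in PCA control, at 9.67 to 10.37, than in AC control, at 8.52 to 9.36, and 7 of 9 passed. Of the skeletal muscle markers 2 of 12 were higher, at 12.86 to 12.98 against 12.59 to 12.81. Macrophage markers stood at 8.28 to 9.02 in PCA control and 9.23 to 9.54 in AC control, and 2 of 10 were lower. Red cell markers stood at 7.91 to 8.56 and 9.35 to 10.16, and 1 of 3 was lower, while 0 of 9 thyroid and parathyroid markers passed. The part of these tissues in the difference was not tested. The count of 7 was 0 with either score as a covariate, 4 without the arrays rich in thyroid transcripts, 3 without PCA control 3, 4 without AC control 2, 3 without AC control 3 and 12 without PCA injury 3. Over all genes 2 passed with the squamous score and 0 with the adipocyte score. Without the thyroid-rich arrays 812 did, and 805 did without PCA control 3. The number was 1138 without AC control 2, 797 without AC control 3 and 1813 without PCA injury 3. In the main fit 1059 of all genes were lower and 464 higher. Neither Cox6a1 nor Atp5mc2 passed without the thyroid-rich arrays, without PCA control 3, without any one of the AC controls or with the replicate number as a block. Ndufs5, Ndufa6 and Ndufa5 passed in each of these fits.

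**Figure D5:**
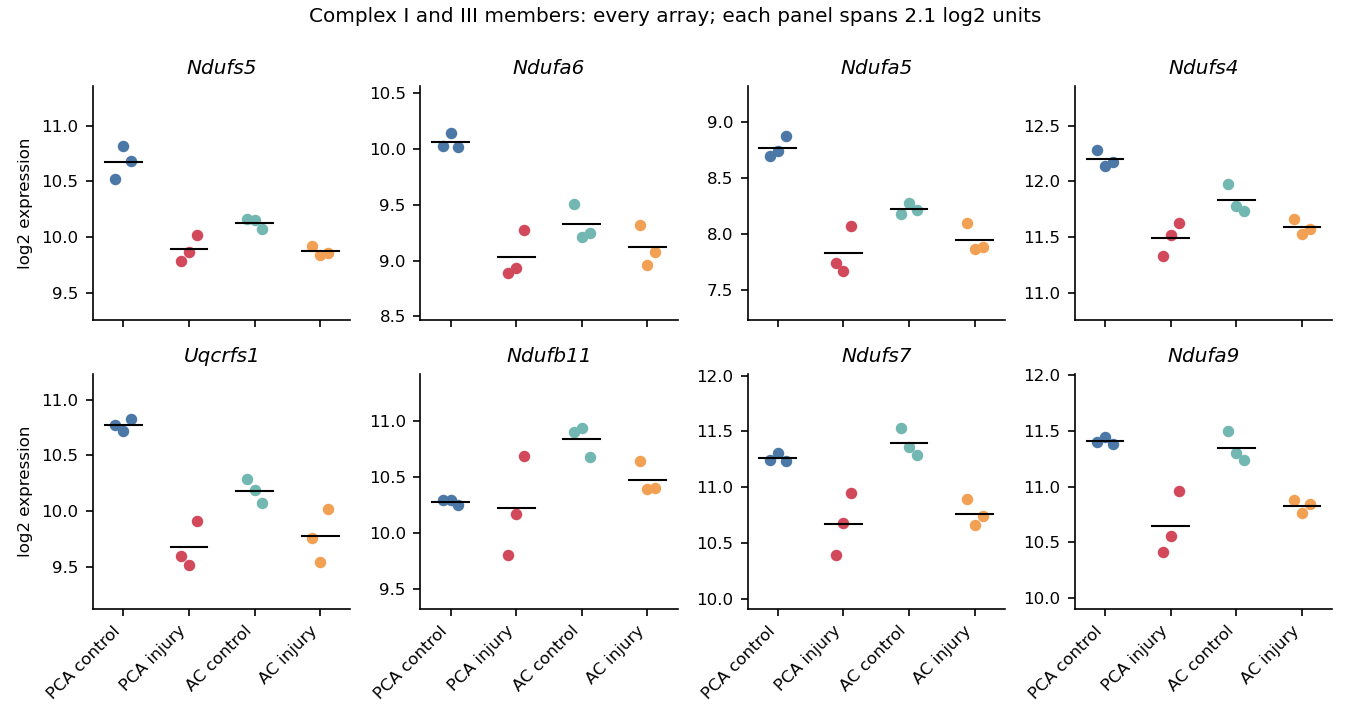
Log2 levels in every array (y axis, each panel spanning the same range) by group (x axis) for the 5 genes higher in PCA control than in AC control, and for Ndufb11, Ndufs7 and Ndufa9; points are arrays and lines are group means. For Ndufs5, Ndufa6, Ndufa5, Ndufs4 and Uqcrfs1 the PCA controls sit above all other arrays, and the injured groups of both muscles overlap.

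The last comparison set injured PCA against injured AC. No gene of the 72 passed, and 0.0% of all genes did. At an unadjusted p under 0.05 there was 1 of 72, Atp5pf, against 3.61% of all genes. Atp5pf, a coupling subunit of the synthase stalk, read 9.33, 9.42 and 9.76 in PCA injury and 9.81, 9.67 and 9.84 in AC injury (-0.27 ± 0.11; limma, adjusted p = 0.999). Ndufa4 read 11.46, 11.72 and 12.14 in PCA and 12.24, 11.96 and 12.02 in AC (-0.30 ± 0.15), and Atp5me 7.04, 7.29 and 7.45 in PCA and 7.71, 7.26 and 7.62 in AC (-0.27 ± 0.13). The groups of all 3 overlapped. The median over the 72 was -0.12, and -0.01 over all genes, and it was -0.03 without PCA injury 1 and -0.24 without PCA injury 3. Averaged over controls and injured arrays, the isoform ratios differed between the muscles by 0.06 for Cox6a2/Cox6a1, -0.06 for Cox8b/Cox8a and -0.24 for Cox4i2/Cox4i1 (12 arrays; exact permutation within surgery, two-sided, p = 0.75, 0.83 and 0.03, adjusted p = 0.83, 0.83 and 0.09 over the 3 pairs). For the first 2 pairs this average joins differences of opposite sign. Between the controls alone PCA minus AC was 0.39, 0.13 and -0.35 (exact permutation p = 0.1, 0.4 and 0.1, with 0.1 the smallest possible). After injury the mean Cox6a2/Cox6a1 ratio was 1.02 in PCA and 1.29 in AC. The mean Cox8b/Cox8a ratio was -1.74 in PCA and -1.49 in AC.

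Genes that act beside these complexes were read from the same fit. In injured PCA all 5 measured genes of complex II and cytochrome c fell (median -0.70), among them Sdha, the flavoprotein of succinate dehydrogenase (-0.89 ± 0.16), its membrane anchor Sdhc (-0.65 ± 0.11) and Cycs, cytochrome c itself (-0.63 ± 0.12). Of 28 assembly factors 11 fell and 0 rose (median -0.22), with Atpaf1, a chaperone of the F1 head, at -0.67 ± 0.10 and Tmem70, which helps build complex V, at -0.85 ± 0.19. Of 22 genes of the mitochondrial membranes and import 14 fell and 2 rose (median -0.41), among them the fusion protein Mfn1 (-0.83 ± 0.11) and the cristae proteins Chchd3 (-0.75 ± 0.12) and Immt (-0.56 ± 0.10). Without the thyroid-rich arrays 5, 2 and 6 genes of these lists fell in PCA. The assembly factor count was 6 without PCA control 3, PCA injury 1 or PCA injury 2, and the membrane and import count was 7 to 9 without any one PCA array other than PCA injury 3. In injured AC 0 passed in each of the 3 lists by limma, with 5, 3 and 8 genes lower at an unadjusted p under 0.05 and medians of -0.41, -0.13 and -0.18. Of all genes 8.93% were lower at that level, and the 3 of 28 assembly factors are near that share.

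Of the 72 genes, 62 have a promoter window of 300 bases, 250 before to 50 after the start, in the RefSeq table (GRCr8); Cox6a1 and Cox4i2 are among those without one. On both strands, the NRF1 motif (GCGC, any 1 base, TGCGC) was in 12 of the 62 (19.4%), against 4.71% of the 27457 genes with a window, taking 1 window a gene. The ETS motif CCGGAAGT, read by factors such as GABP, was in 7 (11.3%, against 4.01%). The ERR motif TCAAGGTCA was in 1 (1.61%, against 0.412%), Atp5mc3. The MEF2 motif (CTA, any 4 bases, TAG) was in 2 (3.23%, against 3.83%), Cox6a2 and Cox5b. Windows with an NRF1 motif belonged to genes that fell in injured PCA, such as Ndufa5, Ndufs5 and Uqcrc1, and to genes that did not pass, such as Atp5mc2, Atp5po and Ndufv3. A match describes the letters and shows no binding.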

How the data were processed

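RNA was measured on 12 whole-transcript arrays, 3 in each of 4 groups taken from the sample titles. The authors deposited 1 log2 value per probe set and array; the submitters' processing notes name Partek and RMA, with no version, role or order, and base 2 was taken from the range of the values (2.57 to 14.04). RMA is known to include quantile normalisation across arrays, so a change is measured against the rest of the genes on each array. The number of arrays, with no read depth to consider, limits the precision.

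The members and gene lists were chosen with earlier results of these data known. Of 27342 probe sets 15103 had a single symbol, 317 several and 11922 none; 83 belonged to the 72 genes described, and where a gene had several (10 genes) its brightest on average over 12 arrays was used. One limma model (3.58.1, R 4.3.3) with 4 group means was fitted to 14329 genes without a filter on dim genes (8 residual and 3.14 prior degrees of freedom), with Benjamini-Hochberg adjustment over all genes, a threshold of 0.05 and two-sided tests. A marker score is the mean log2 level of a list in an array. Isoform ratios were tested by exact permutation within strata, adjusted over 3 pairs. Values in every array are given for the 4 smallest adjusted p-values of each complex in PCA and the 2 smallest in AC, for isoforms, for members that did not fall in PCA, and for the 3 smallest p-values between the muscles. The fit was tested on simulated data. Alternatives covered normalisation, level filter, probe set choice, groups fitted, replicate block, weights, prior, marker scores as covariates, 3 arrays left out together, and each array left out. Figures were drawn with Python 3.11.15 and matplotlib 3.10.9.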

Additional observations from a re-analysis of the deposited data

How the results depend on the processing

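The number of genes past the test in PCA injury, 57 as reported, was 34 with only the PCA groups fitted, 31 without the 3 arrays rich in thyroid transcripts, 11 with the squamous epithelium score as covariate and 0 with the adipocyte score, and 34 to 64 when 1 array was left out. The median change there was -0.81 with the adipocyte score and -0.71 to -0.43 with 1 array left out. With that score 6 of all 14329 genes passed in PCA. In AC injury the count of 1 was 4 over genes above the median level, 11 with only the AC groups, 11 with array weights, 2 with a trended robust prior, 0 with the replicate block, 0 without the thyroid-rich arrays, 0 with the squamous score, 0 with the adipocyte score, and 0 to 23 with 1 array left out. Over all genes the AC calls in these fits were 250, 619, 703, 278, 55, 10, 135 and 150, and 13 to 663 with 1 array left out. For the difference of the injury effects the count of 0 was 1 over genes above the median level and 4 with array weights, and the median of 0.25 was 0.52 with the adipocyte score and 0.14 to 0.40 with 1 array left out. The median between the injured muscles was -0.24 to -0.03 with 1 array left out. Between the control muscles the count of 7 was 4 with the replicate block, 4 without the thyroid-rich arrays, 0 with the squamous score, 0 with the adipocyte score (where the median was 0.41), and 3 to 12 with 1 array left out. In those fits between the control muscles 790, 812, 2 and 0 of all genes passed, in that order, and 714 to 1813 with 1 array left out. The cause of these shifts was not tested.

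For the 3 isoform ratios the alternatives run were the mean of all probe sets, the thyroid-rich arrays left out, the replicate block and each array left out. The ratios were not fitted with the squamous or adipocyte score. Their changes with injury kept their direction and their side of the threshold in the alternatives run. With 1 array left out they were -1.11 to -0.84, -1.02 to -0.76 and 0.41 to 0.53. Between the muscles, Cox4i2/Cox4i1 was -0.24 with the replicate block (exact sign-flip test of the differences between same-numbered arrays, p = 0.0625). It was -0.28 without the thyroid-rich arrays (exact permutation p = 0.05) and -0.31 to -0.19 with 1 array left out. Cox6a2/Cox6a1 ranged from -0.11, without PCA injury 3, to 0.16, and Cox8b/Cox8a from -0.23 to 0.04, turning sign without PCA injury 1 (0.04) or PCA injury 2 (0.01).

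In PCA injury 6 genes changed sign under some alternative, none of which had passed: Atp5mc2 (-0.02) and Cox7a2l (-0.14) with the squamous score, Cox8a (0.04) with the adipocyte score, Ndufb11 (-0.29 to 0.15 with 1 array left out) and Ndufv3 (-0.38 to 0.00) without PCA injury 1, and Ndufb2 (0.08) without PCA control 2 and (0.08) without PCA injury 1. The labels do not say that a replicate number marks a shared animal. Deviations of same-numbered arrays correlated between -0.39 and 0.34, and in none of the 4 sets of 3 pairs were all above 0.1. These values cannot decide on pairing, since each set has only 3 pairs, and control and injured arrays come from different animals. The arrays were not treated as paired because the labels give no pairing. The highest values, 0.34 and 0.27, were those of PCA with AC injury 2 and 3, and whether these share an animal is not known. With the number as a block, 54 genes passed in PCA injury, 53 of them among the 57, and 3104 of all genes passed.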
